A study of Mus musculus with 8 samples.

Results

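The 4 genes described here, Hmgcs1, AF067063, B020031M17Rik and BC147527, lie close together near the distal end of mouse chromosome 13. They were found among the non-control rows of 8 scanner files by matching each row's RefSeq transcript, without its version, to a gene symbol, and each gene has 1 probe in 1 spot per array. They are 4 of 112 genes that could be given a symbol in this way, on arrays of 59709 probes. The genes were chosen by their place on the chromosome and by the log2 signal of B020031M17Rik in the hearts of both groups, so the difference between the groups is given for all 4 as a description, without a test.

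The study asked what loss of Klf5 from cardiomyocytes does to RNA in the mouse heart. Klf5 encodes a zinc finger transcription factor of the Kruppel-like family. All mice were male, were 8 to 12 weeks old and were kept at basal conditions, and each array holds total RNA of 1 whole heart. The 4 control mice carried floxed Klf5 alleles and no Cre recombinase, and the 4 knockout mice, labelled aMHC-KLF5-/-, expressed Cre in cardiomyocytes. aMHC is the usual short name of the alpha-myosin heavy chain promoter, which is active in cardiac muscle cells, so the fibroblasts, endothelial cells and blood cells of the same hearts would keep Klf5. Floxed alleles were therefore common to both groups, and no group with Cre alone is among the samples.

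Hmgcs1 encodes the cytosolic hydroxymethylglutaryl-CoA synthase, which joins acetyl-CoA to acetoacetyl-CoA early in the mevalonate pathway, the route to cholesterol and isoprenoids, and its transcription is driven by sterol regulatory element-binding proteins when sterols are scarce. AF067063, B020031M17Rik and BC147527 are mouse genes annotated as protein coding and still called by clone or cDNA names. B020031M17Rik and BC147527 lie between Tcstv1 and Tcstv3, whose symbols stand for a variable group of genes of the 2-cell embryo. AF067063 lies on the other side of Tcstv1, and the stretch also holds pseudogenes.

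The signal stood well above background for 27806 to 31459 probes per control array and for 28103 to 43290 per knockout array. The barcode in the file headers has 2 parts. The first was 1 for every control array and 2 for every knockout array, so this part cannot be told apart from genotype. The other part of the barcode equals the replicate number. Klf5 itself was not analysed here, and none of the 34 heart and blood cell marker genes considered had a probe with a symbol, so neither the deletion nor the tissue was checked through these files. Of 29 genes of sterol synthesis and its control Hmgcs1 alone had a named probe, and of 25 genes of the 2-cell stage Tcstv1 and Tcstv3 had one. Each signal below is a log2 value minus the array's own 75th percentile, so 0 is that percentile. Levels are compared between hearts and not between probes.

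B020031M17Rik (NM_001033769) was lower in every knockout heart than in any control heart, and the knockout hearts differed widely among themselves. The signal was 4.37, 4.66, 4.43 and 4.64 in control replicates 1 to 4 and 3.88, 1.94, 4.01 and 2.21 in knockout replicates 1 to 4. The controls thus lay within 0.29 of each other, knockout replicates 1 and 3 lay just below them, and replicates 2 and 4 lay far below. Control hearts averaged 4.52 ± 0.14 and knockout hearts 3.01 ± 1.09 (SD, n = 4 per group), a difference of -1.51 on the log2 scale, or a 2.86-fold lower mean in the knockout group. In whole hearts fewer cells of a type and less RNA per cell cannot be told apart. No probe sequences were at hand, so whether the probe reads this gene alone was not tested. Against the control mean, the signal was 1.56-fold lower in knockout replicate 1 and 1.43-fold lower in replicate 3, but 6.01-fold lower in replicate 2 and 4.97-fold lower in replicate 4.

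The mean of the knockout group lay between its hearts and near none of them. The spot was well above background on all 8 arrays, and the scanner software put the error of its signal at no more than 10.04% of it. Knockout replicates 2 and 4, which were the lowest, had the most probes above background of the knockout arrays, 43290, and the fewest, 28103. Leaving out 1 array at a time moved the difference between -1.85 and -1.16, with the smallest size when knockout replicate 2 was left out, and it lay between -1.57 and -1.46 under the other normalizations and sources of values. Over all tested probes limma called 39 of 27878, which is 0.140%, and called 0.00717%, or 2 probes, as lower in knockout hearts. The number called lower was 10 without control replicate 1, 6 without control replicate 4, 6 without knockout replicate 4 and 0 in the authors' table. In 5.75% of 27838 tested probes with no missing value the groups did not overlap, and in 1.66% every knockout heart was below every control heart. Of the 4 members 3 passed the filter on signal, B020031M17Rik, BC147527 and Hmgcs1, and B020031M17Rik was the 1 of these whose groups did not overlap. Nothing is read from this count, since the same values chose the gene.

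**Figure D1:**
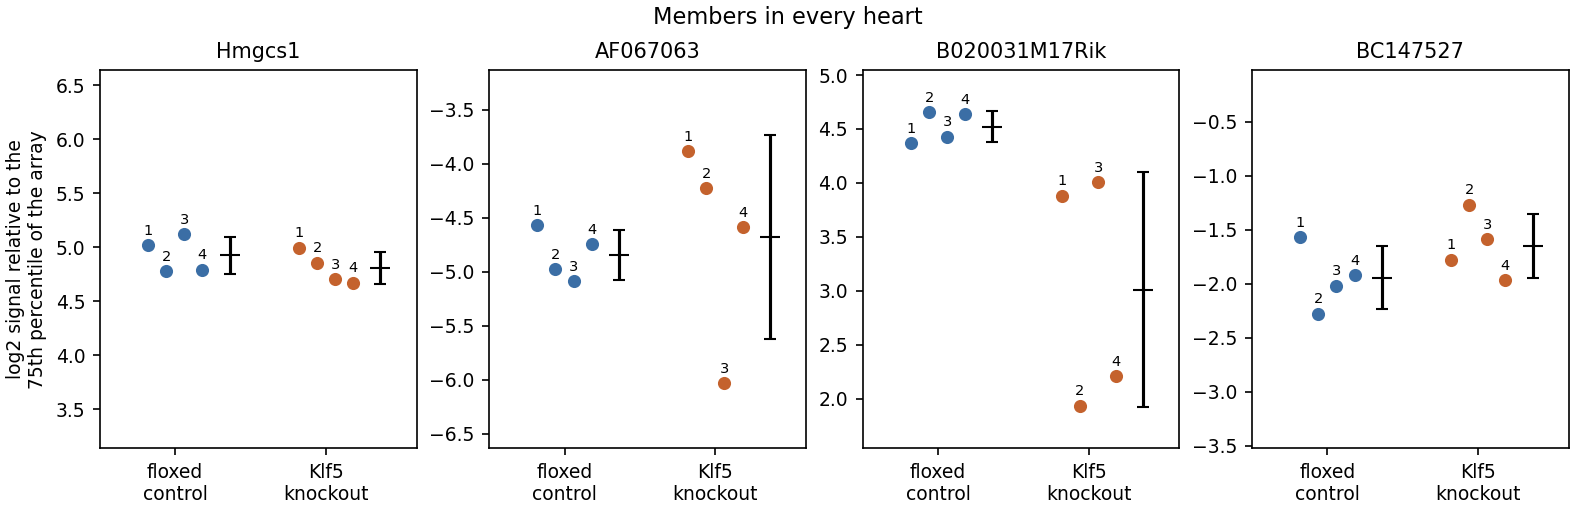
Each panel plots the log2 signal minus the array's 75th percentile (y axis) of 1 gene in 4 floxed control hearts (blue) and 4 Klf5 knockout hearts (orange), numbered by replicate, and bars give the mean ± SD. Knockout replicates 2 and 4 lie at 1.94 and 2.21 for B020031M17Rik against 4.37 to 4.66 in controls, while the groups overlap for the other genes, and AF067063 is not well above background on 7 of 8 arrays.

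The spread of B020031M17Rik was small among control hearts and large among knockout hearts. Its control SD of 0.14 was below the median control SD of the tested probes, 0.20, and 67.6% of them had a larger one. Its knockout SD of 1.09 was above the median knockout SD, which was also 0.20, and 1.86% of tested probes had a larger one. These are positions among probes and were not tested, since the knockout values had chosen the gene.

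A small set of other probes had nearly the same values, heart by heart, as B020031M17Rik. Likeness was measured as the root mean square distance, in log2 units, between the values of 2 probes over the 8 hearts after each was centred on its own mean. On this scale a probe with no variation would lie 1.01 from B020031M17Rik. Among 27838 tested probes, 5 others lay nearer than 0.1, 20 nearer than 0.25 and 40 nearer than 0.5, and the threshold of 0.25 was chosen after the values were seen. The last probe inside it lay at 0.240 and the first outside at 0.251. A probe could pass the filter on signal through the control group alone, where this pattern is high, and so enter these counts. The mirror image of the pattern, high in the hearts where B020031M17Rik was low, had 0 probes nearer than 0.25 and 4 nearer than 0.5.

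The nearest 5 were ASMM9PARTA009783 at 0.0594, ASMM9PARTA011785 at 0.0649, ASMM9PARTA036324 at 0.0697, ASMM9PARTA043954 at 0.0906 and MM9LINCRNAEXON11316+ at 0.0931. The first 4 are vendor catalogue probes without a gene name in the files, and the last is designed to an exon of a long intergenic noncoding RNA. What sequence they share with the probe of B020031M17Rik was not tested. ASMM9PARTA009783 read 3.04, 3.34, 3.09 and 3.30 in control replicates 1 to 4 and 2.49, 0.45, 2.54 and 0.83 in knockout replicates 1 to 4. MM9LINCRNAEXON11316+ read 3.00, 3.43, 3.16 and 3.21 in the controls and 2.52, 0.38, 2.66 and 0.81 in the knockout hearts. Both were well above background on all 8 arrays and had the same order of knockout hearts as B020031M17Rik. Relative to their control means the 5 probes lay between -0.70 and -0.49 in knockout replicate 1 and between -0.65 and -0.48 in replicate 3. They lay between -2.82 and -2.46 in replicate 2. In replicate 4 ASMM9PARTA011785 was not well above background and its value is uncertain, and the other 4 lay between -2.47 and -2.29. Nearness of these values is what the choice by likeness requires. The spots of the 20 nearest probes lie in rows 26 to 313 of the array. The probe for the opposite strand of the same exon, MM9LINCRNAEXON11316-, was not well above background on any array.

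Of the 20 probes nearer than 0.25, 17 were vendor catalogue probes, 1 was the noncoding RNA exon probe, 1 was designed to an expressed sequence tag and 1 to a human-locus noncoding RNA. All 20 had their lowest values in knockout replicates 2 and 4, as the choice by likeness favours, and their mean differences lay between -1.74 and -1.29. The groups did not overlap in 18 of the 20. Neither count is read as a result, because likeness to B020031M17Rik carries the contrast with it. In 12 of the 20 the probe was well above background on all 8 arrays. In 8 it was not so in knockout replicate 4, where the value is then uncertain. Those probes passed the filter on signal only through the control group, where they are high. These 8 include ASMM9PARTA011785, the tag probe AU023603, which read -0.99, -0.19, -0.68 and -0.57 in controls and -1.41, -3.27, -0.96 and -2.68 in knockout hearts, and the human-locus probe humanlincRNA0635+, with -0.60, -0.18, -0.48 and -0.36 in controls and -1.17, -3.51, -0.80 and -3.10 in knockout hearts. AU023603 and humanlincRNA0635+ were named after their values were seen, and the control and knockout ranges of AU023603 overlap. With normexp background correction 11 probes lay nearer than 0.25, all among the 20, and the authors' value table, which holds fewer probes, gave 9, also all among them. Without knockout replicate 2 the number was 26, of which 19 were among the 20, and without knockout replicate 4 it was 25, with all 20 among them.

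**Figure D2:**
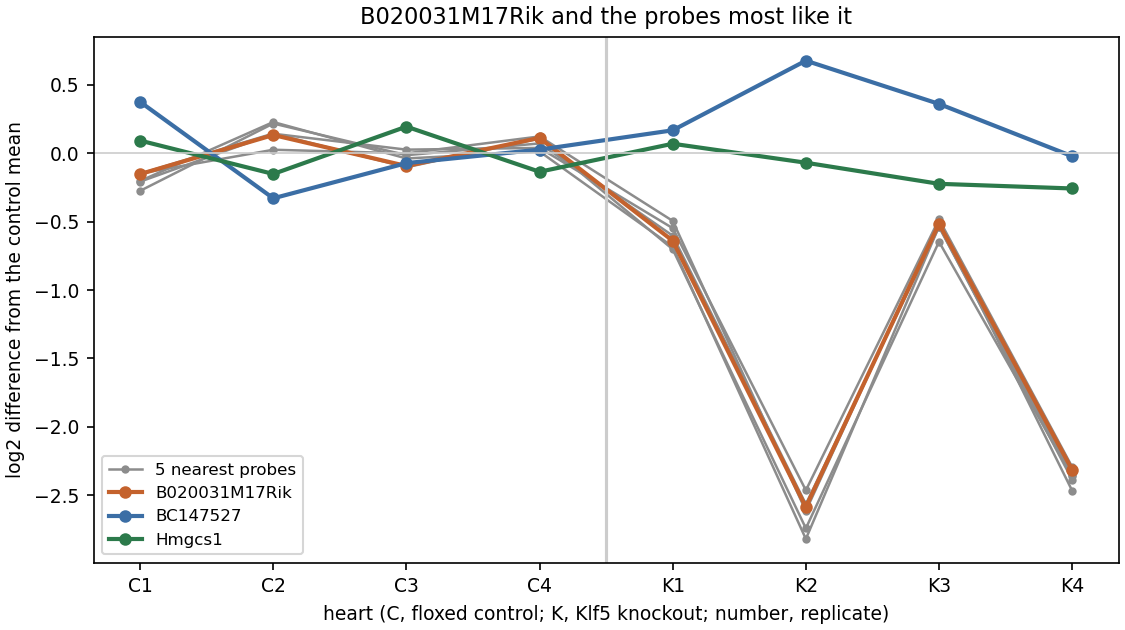
The log2 difference from the control mean (y axis) is plotted for each heart (x axis, C for floxed control and K for Klf5 knockout with the replicate number) for B020031M17Rik (orange), its 5 nearest probes (grey), BC147527 (blue) and Hmgcs1 (green), and lines only join the points of 1 probe. The grey lines, chosen for their likeness, lie close to that of B020031M17Rik. They lie between -2.82 and -2.46 in knockout replicate 2 and between -2.47 and -2.29 in replicate 4. In replicate 4, 1 of the 5 was not well above background. The lines of BC147527 and Hmgcs1 do not lie close to that of B020031M17Rik.

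None of the other 88 tested probes with a gene symbol lay nearer than 0.5 to B020031M17Rik. The nearest to B020031M17Rik were Taf1a, which helps RNA polymerase I start transcription of ribosomal RNA genes, at 0.891, Ccl21c, a chemokine for lymphocytes and dendritic cells, at 0.894, Gm13304 at 0.904, 4930526I15Rik at 0.912 and Ccl21b at 0.945. These distances are close to the 1.01 of a flat probe. The measure depends on the size of a change, so a probe that varies little lies near 1.01 whatever its order of hearts. Knockout replicates 2 and 4 were the lowest hearts for Taf1a and 4930526I15Rik. Control replicate 2 was among the lowest for Ccl21c, Gm13304 and Ccl21b. The 8 hearts spanned 0.43 for Taf1a and 0.64 for 4930526I15Rik, against 2.72 for B020031M17Rik. BC147527 lay at 1.19 and Hmgcs1 at 0.972, so neither of the measured members on the same stretch lay near B020031M17Rik on this scale.

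Hmgcs1 (NM_145942) had similar values in both groups. The signal was 5.02, 4.78, 5.12 and 4.79 in control replicates 1 to 4 and 4.998, 4.86, 4.70 and 4.67 in knockout replicates 1 to 4. The groups overlap, since knockout replicates 1 and 2 lie within the control range and replicates 3 and 4 lie just below it. Control hearts averaged 4.93 ± 0.17 and knockout hearts 4.81 ± 0.15 (SD, n = 4 per group), a difference of -0.12 that is smaller than the SD of either group. The 8 hearts spanned 0.45, and the spot was well above background on every array. The difference was -0.06 without control replicate 3, -0.07 without knockout replicate 4 and -0.18 without knockout replicate 1. Knockout replicates 2 and 4, where B020031M17Rik was 6.01-fold and 4.97-fold below the control mean, were 1.05-fold and 1.196-fold below it for Hmgcs1. The symbols whose values were most like those of Hmgcs1 were 4930526I15Rik at 0.119, Gm6710 at 0.122, Hprt, a purine salvage enzyme, at 0.128, Gapdh, a glycolytic enzyme, at 0.130 and Brox at 0.142, and distances this small also arise between probes that vary little.

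BC147527 (NM_001037925) had a low signal that was well above background on all 8 arrays. It read -1.57, -2.28, -2.02 and -1.92 in control replicates 1 to 4 and -1.78, -1.27, -1.59 and -1.97 in knockout replicates 1 to 4. The groups overlap, with the highest value in knockout replicate 2, where B020031M17Rik was lowest. Control hearts averaged -1.95 ± 0.29 and knockout hearts -1.65 ± 0.30 (SD, n = 4 per group), a difference of 0.30, about as large as the SD of either group. The difference was 0.17 without knockout replicate 2, 0.19 without control replicate 2 and 0.16 with normexp background correction. The error of the spot signal was between 10.3% and 19.2%, larger than for the brighter members.

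Promoter windows from RefSeq (build GRCm38.p6, 300 bases around a gene's start) were at hand for Hmgcs1 and BC147527. They are shown because Klf5 belongs to a family whose members bind CACCC and GC boxes. B020031M17Rik and AF067063 have no window here, so the gene whose groups did not overlap is not compared by promoter. The build of the arrays is mm9, so the windows are not placed on the array's coordinates. The Hmgcs1 window is chr13:119690101-119690400 and the BC147527 window is chr13:120300142-120300441, both on the plus strand and printed 5′ to 3′, with capitals marking CACCC and its reverse complement GGGTG, overlapping matches included.
Hmgcs1: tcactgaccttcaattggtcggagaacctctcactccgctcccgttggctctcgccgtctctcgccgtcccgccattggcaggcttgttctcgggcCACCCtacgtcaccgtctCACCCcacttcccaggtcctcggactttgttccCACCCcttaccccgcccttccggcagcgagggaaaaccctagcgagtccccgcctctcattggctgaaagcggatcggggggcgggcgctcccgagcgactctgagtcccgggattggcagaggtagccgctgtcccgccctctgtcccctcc
BC147527: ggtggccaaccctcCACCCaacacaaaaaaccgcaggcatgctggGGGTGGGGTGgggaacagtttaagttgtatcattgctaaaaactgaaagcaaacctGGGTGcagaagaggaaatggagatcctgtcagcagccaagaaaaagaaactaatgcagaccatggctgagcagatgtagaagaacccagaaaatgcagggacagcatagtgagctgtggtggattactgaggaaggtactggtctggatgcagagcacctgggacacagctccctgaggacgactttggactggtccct

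The Hmgcs1 window holds 3 matches to CACCC on either strand, 3 to the GC box CCGCCC and 4 to the CCAAT box CCAAT. The BC147527 window holds 4 matches to CACCC and 0 to either of the other motifs. Among 32851 windows of this length 57.5% hold CACCC, 35.7% hold CCGCCC and 37.4% hold CCAAT, counting both strands, and at least 3 CACCC matches stand in 9.35% of them and at least 4 in 3.10%. The GC content was 65.7% for Hmgcs1 and 51.3% for BC147527. A match describes letters in the window and not a bound site.

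AF067063 (NM_001001449) was not well above background on 7 of 8 arrays, so its values are uncertain and order no hearts. It read -4.57, -4.97, -5.09 and -4.74 in control replicates 1 to 4, and -3.88, -4.23, -6.03 and -4.59 in knockout replicates 1 to 4. On 6 arrays, all 4 controls and knockout replicates 3 and 4, the value is the lowest signal of the array, which between 11152 and 19365 probes share on those arrays. Knockout replicate 2 alone was well above background, on the array with the lowest floor. No fold is given for this gene, and it was not among the tested probes.

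Among the tested neighbours that are not members, the difference between the groups lay between -0.03 and 0.15, against -1.51 for B020031M17Rik. In RefSeq's gene order the measured genes run Ccl28, Hmgcs1, Nim1k, Zfp131, AF067063, Tcstv1, B020031M17Rik, BC147527 and Tcstv3, 9 of 40 annotated genes of the stretch, and Tcstv3 is the last gene annotated on the chromosome. The stretch holds 16 protein-coding genes and 14 pseudogenes. Between Tcstv1 and B020031M17Rik lie 2 other annotated genes and between B020031M17Rik and BC147527 lie 21. Of the 5 neighbours that are not members, 4 were tested and limma called 0 of them, with adjusted p-values between 0.769 and 0.994 over all tested probes and 0 at an unadjusted p under 0.05. Over all tested probes 0.140% were called and 8.06% had an unadjusted p under 0.05, so counts of 0 among 4 do not set these neighbours apart from other probes. Tcstv3 was not well above background on any control array and was so on 1 knockout array, and it was not tested.

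Tcstv1, the nearest measured gene on one side, read -1.59, -1.94, -1.61 and -1.11 in control replicates 1 to 4 and -1.57, -1.65, -1.51 and -1.47 in knockout replicates 1 to 4. Its difference was 0.01 with a limma SE of 0.17 (adjusted p = 0.989), and its knockout hearts spanned 0.18 against 2.07 for B020031M17Rik. Zfp131, a zinc finger protein gene with a bright probe, read 4.56, 4.57, 4.38 and 4.82 in controls and 4.97, 4.71, 4.50 and 4.74 in knockout hearts. Its difference was 0.15 with an SE of 0.13 (limma adjusted p = 0.769). Nim1k, a protein kinase gene next to Hmgcs1, had -1.84, -1.88, -1.84 and -1.94 in controls and -1.07, -2.10, -2.11 and -1.92 in knockout hearts, where replicate 1 was the high one, and its difference was 0.08 with an SE of 0.23 (limma adjusted p = 0.936).

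Ccl28, a chemokine of mucosal epithelia, varied widely in both groups. It read -3.39, -2.38, -1.57 and -1.95 in controls and -1.53, -3.66, -2.71 and -1.49 in knockout hearts, with a difference of -0.03 and an SE of 0.57 (limma adjusted p = 0.994), and it was above background on 3 control and 4 knockout arrays. Knockout replicate 2 had the lowest Ccl28 value of all 8 hearts, as for B020031M17Rik. The order of hearts still differed from that of B020031M17Rik, since knockout replicate 4 had the highest Ccl28 value of all 8. The 2 genes flanking B020031M17Rik among the measured ones, Tcstv1 and BC147527, thus kept within 0.68 of their control means in knockout replicates 2 and 4, where B020031M17Rik lay at -2.59 and -2.31 from its own.

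**Figure D3:**
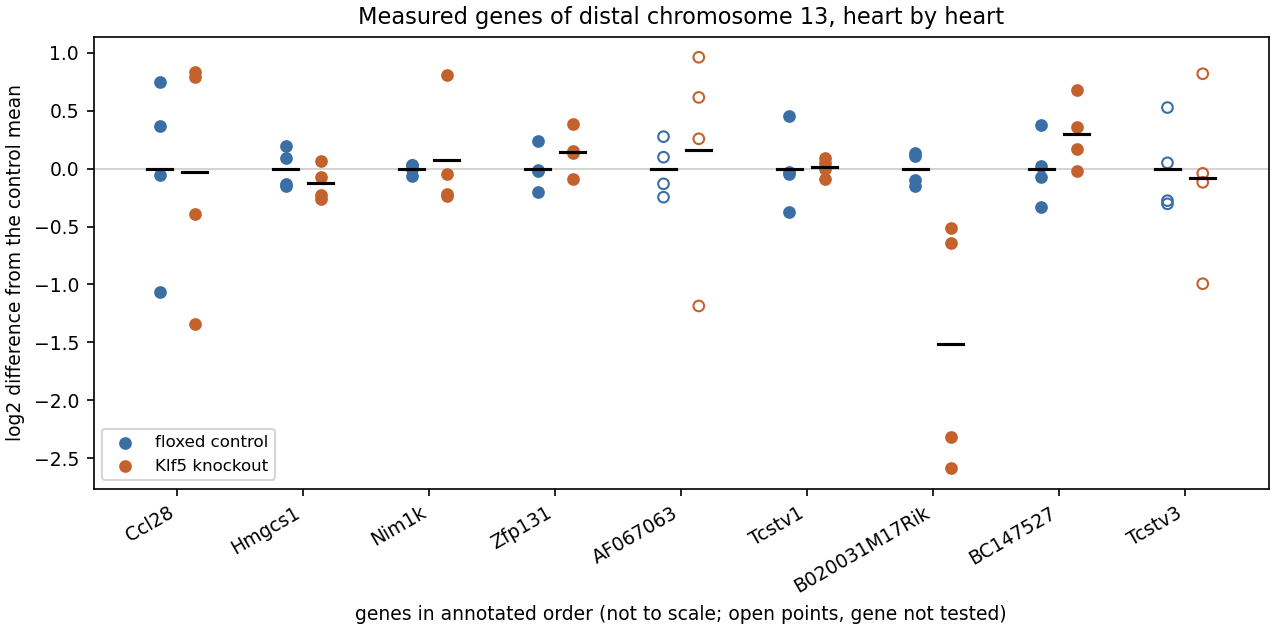
The log2 difference of each heart from the gene's control mean (y axis) is plotted for 9 measured genes in annotated order along chromosome 13 (x axis, not to scale), with floxed control hearts in blue, Klf5 knockout hearts in orange, means as black bars and open points for genes that were not tested. B020031M17Rik is the gene whose groups do not overlap, with knockout replicates 2 and 4 at -2.59 and -2.31.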

How the data were processed

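RNA of 8 hearts, 4 per group, was depleted of ribosomal RNA, amplified with random priming and put on one-colour arrays with the dye Cy3, per the labels' protocols. The deposited intensity is that of Agilent Feature Extraction 11.0.1.1, per the submitters' processing notes, background-corrected and not scaled between arrays; build mm9 is named per the file headers. The deposited value table of the authors, on the log2 scale, was used as an alternative. How it was normalized is not known from the sources used, but each column ranked the probes nearly as the scanner signal did.

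The processed signal was log2-transformed, and the 75th percentile over 59709 probes was subtracted array by array. Control spots, probes named as negative controls (1200 spots) and spots with outlier flags were left out. Tested probes had at least 3 usable arrays in each group and a signal well above background on all usable arrays of at least 1 group. The fit used limma 3.58.1 (R 4.3.3), Benjamini-Hochberg adjusted over 27878 probes at 0.05. The fit was tested on simulated data with the means and spreads of these probes. It recovered 56% of probes changed by 1 log2 unit and 80% of those changed by 2, so it misses real changes. The number of arrays limits the precision. The members and gene lists were chosen with earlier results of these data known. Named were the members, the 5 probes and 5 symbols nearest to B020031M17Rik, the 5 symbols nearest to Hmgcs1 and measured genes of 3 lists. Symbols and gene order came from RefSeq's GRCm38.p6 table, and the coordinates printed for promoter windows are of that build, not of the arrays' mm9.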

Additional observations from a re-analysis of the deposited data

How the results depend on the processing

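The differences of B020031M17Rik, BC147527 and Hmgcs1 kept their direction and moved by less than the spread between hearts under all 16 alternatives run, which were 3 scalings or normalizations, normexp correction, the authors' table, kept outlier flags, values raised to the detection limit, the replicate block and 8 omissions of an array. Over the omissions they ran from -1.85 to -1.16, from 0.17 to 0.42 and from -0.18 to -0.06, and over the others from -1.57 to -1.46, from 0.16 to 0.33 and from -0.18 to -0.09. That of AF067063, 0.16, was -0.81 with values raised to the detection limit, which there is the limit itself on 7 arrays, and -0.10 to 0.61 over the omissions, so it has no direction.

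The number of called probes, 39, was 22 in the authors' table and 11 over the probes detected in all 8 hearts, both of which test fewer probes, and 28 to 79 when 1 array was left out, with 79 without control replicate 1 and 73 without knockout replicate 4. The number called lower in knockout hearts, 2, ranged from 1 to 10 over these omissions, with 5 each without control replicates 2 and 3, and was 4 with the replicate block and 0 in the authors' table and over the probes detected in all 8 hearts, and the cause of these shifts was not tested. With the replicate block the number called in either direction was 34, of which 24 were among the 39, and the block leaves the members' differences as they are. Same-numbered hearts correlated at 0.06, -0.05, 0.36 and 0.24 in their deviations from the group means, and 3 of 4 matched their own number best. The main fit left the replicate number out, and whether same-numbered hearts share an effect was not tested. The mean over several probes of a gene was not run, as each member has 1. Signal near background limits AF067063 and, less so, BC147527.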
